A study of Homo sapiens with 10 samples.

Results

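The subunits of the m6A writer complex were followed through oncogene-induced senescence and through loss and return of one of them, METTL3, in IMR90 cells, a line of human fetal lung fibroblasts. Members were taken by name: METTL3, METTL14, WTAP, VIRMA (also called KIAA1429), RBM15, RBM15B, ZC3H13, CBLL1 and METTL16, 9 genes in all. Of these, 8 were found among the 57736 rows of the deposited count table, and all 8 passed the filter on low counts that left 16760 genes for testing. RBM15B was not matched to a row and is not analysed here. The rows were ENSG00000165819 for METTL3, ENSG00000145388 for METTL14, ENSG00000146457 for WTAP, ENSG00000164944 for VIRMA, ENSG00000162775 for RBM15, ENSG00000123200 for ZC3H13, ENSG00000105879 for CBLL1 and ENSG00000127804 for METTL16.

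N6-methyladenosine (m6A) is the most common internal methylation of messenger RNA. It is written in the nucleus by a complex whose core is a heterodimer of METTL3, which binds S-adenosylmethionine and carries the catalysis, and METTL14, which has no catalytic activity of its own and helps to hold the RNA. WTAP anchors the core in nuclear speckles, and VIRMA, ZC3H13, RBM15 or its paralog RBM15B, and CBLL1 (also called HAKAI) form the larger regulatory part that places it on transcripts. METTL16 is a separate methyltransferase that acts on U6 small nuclear RNA and on the messenger RNA of MAT2A, the enzyme that makes S-adenosylmethionine.

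Total RNA from 5 groups of 2 samples each was sequenced. By the protocol and sample names, the control cells carried an empty retrovirus and control siRNA, and the senescent control carried a RAS-expressing retrovirus, which drives fibroblasts into senescence, and control siRNA. The METTL3 knockout, as the labels title it, was the same RAS-infected cell with METTL3 siRNA, a knockdown rather than a deleted gene, according to the sample names. Its sample names also carry the word vec, which those of the senescent control lack, so an empty lentivirus may differ between these groups as well as the siRNA. The wild type and mutant knock-in groups had RAS, METTL3 siRNA and a lentivirus encoding wild type or mutant METTL3. The protocol text of the labels describes METTL14 siRNA and a METTL14 mutant where the sample names give METTL3, and no source used here names the METTL3 mutation. By that protocol siRNA was first added at day 4 after the retrovirus and cells were collected 48 h after the last infection. Nothing in the labels says that the 2 samples of a group came from separate cultures, so p-values measure the spread between samples, which may be technical.

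Libraries held 16293975 to 23570266 counts. Levels are given as CPM, counts scaled to a common library size. HRAS averaged 14.7 CPM in control and 26.7 to 61.2 CPM in the RAS groups, and LMNB1, a nuclear lamina gene lost in senescence, fell from 59.4 to 2.83 CPM between control and senescent control. All 10 fibroblast markers listed were above 10 CPM in every sample. The control pair was the least alike: comparing its 2 samples gave a chi-square of 37.7 per gene, and the other pairs gave 5.47 to 7.93. With 2 samples against 2 the smallest exact permutation p is 0.333, so each test below is edgeR's quasi-likelihood test fitted over all genes and all 10 samples, adjusted over all 16760 genes by Benjamini-Hochberg and called at 0.05. In bulk RNA, fewer cells of a type and less RNA per cell cannot be told apart.

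METTL3, the targeted gene, followed the labels. It stood at 72.7 and 81.4 CPM in the control samples, 47.3 and 57.3 CPM in the senescent control and 23.2 and 28.9 CPM in the knockout. It was 58385 and 58125 CPM in the wild type knock-in and 114107 and 147774 CPM in the mutant knock-in. No 2 groups overlapped, and METTL3 was the only member for which all 10 pairs of groups differed. The METTL3 row cannot separate the endogenous transcript from the lentiviral one, so what the siRNA left of the endogenous transcript in the knock-in samples cannot be read from it.

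METTL3 fell in senescence by 0.56 on the log2 scale (SE 0.14; edgeR adjusted p = 0.00861) and by a further 1.00 in the knockout against the senescent control (SE 0.15; edgeR adjusted p = 0.000872). A share of METTL3 transcript therefore remained, with a mean of 26.0 ± 4.02 CPM (SD, n = 2) in the knockout against 52.3 ± 7.09 CPM in the senescent control. The knock-in exceeded the knockout by 11.13 on the log2 scale for the wild type (SE 0.21; edgeR adjusted p = 7.26e-11) and by 12.29 for the mutant (SE 0.22; edgeR adjusted p = 3.65e-11). METTL3 made up at most 0.00791% of all counts in the samples without a knock-in, 5.86% and 5.87% in the wild type samples, and 11.3% and 14.2% in the mutant samples. METTL3 counts were 2.25-fold higher in the mutant than in the wild type knock-in (log2 1.17, SE 0.14, edgeR adjusted p = 0.00127). Any comparison of mutant with wild type therefore also compares unequal levels of METTL3 transcript. These data hold no measure of METTL3 protein.

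The senescence call for METTL3 depended on single libraries, with an adjusted p of 0.0588 without control replicate 1, 0.135 without control replicate 2 and 0.114 without senescent control replicate 1. Over all its alternatives the adjusted p ran from 6.96e-09 to 0.135. TOX4, a neighbour whose gene overlaps METTL3, moved from 106.0 CPM in the knockout to 139.7 and 151.4 CPM in the knock-in groups (edgeR adjusted p = 0.0242 and 0.00416). Whether reads of the overlap contributed to either row was not tested.

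**Figure D1:**
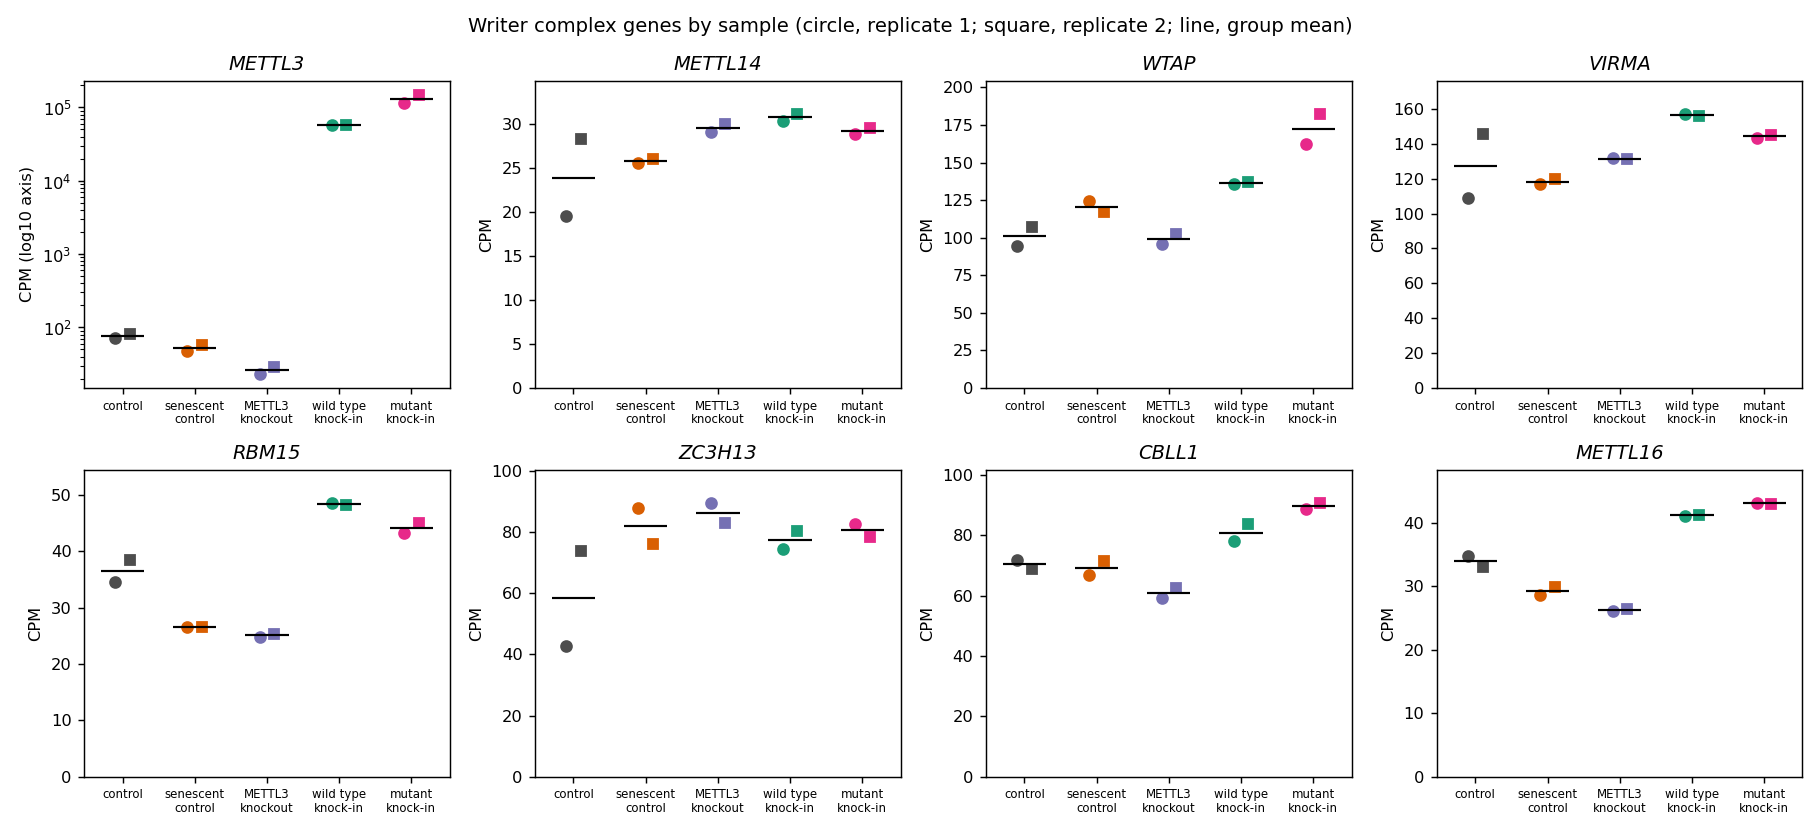
CPM of the 8 members (METTL3 on a log axis, the others on linear axes from 0) in each of the 10 samples; points are samples and lines are group means. METTL3 spans from 23.2 CPM in a knockout sample to 147774 CPM in a mutant knock-in sample, while RBM15, METTL16, WTAP and CBLL1 sit higher in both knock-in groups than in the knockout.

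METTL14, the partner of METTL3, was the steadiest of the other members. Its level was 19.5 and 28.3 CPM in control, 25.6 and 26.0 CPM in the senescent control, 29.1 and 29.9 CPM in the knockout, 30.3 and 31.1 CPM in the wild type knock-in, and 28.9 and 29.5 CPM in the mutant knock-in. The highest and lowest group means differed by 1.29-fold, and the wide control pair covered much of that span. Of the 10 pairs of groups METTL14 was called in 1, higher in the wild type knock-in than in control. Against the knockout, the wild type knock-in differed by 0.06 on the log2 scale (95% interval -0.25 to 0.36; edgeR adjusted p = 0.794) and the mutant by -0.02 (-0.32 to 0.29; edgeR adjusted p = 0.935). In the knockout against the senescent control METTL14 differed by 0.19 (-0.11 to 0.50; edgeR adjusted p = 0.408). In senescence it differed by 0.11 (edgeR adjusted p = 0.539), with a direction that turned on the control pair: 0.45 without control replicate 2 (adjusted p 0.000731) and -0.11 without control replicate 1 (adjusted p 0.381; range over alternatives 0.000731 to 0.749).

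The ratio of METTL3 to METTL14 counts within a sample was computed to set the partners of the core side by side. It was 2.88 to 3.73 in control, 1.85 to 2.20 in the senescent control and 0.798 to 0.965 in the knockout, so knockout samples held fewer METTL3 than METTL14 counts. In the knock-in samples it reached 1869 to 1925 for the wild type and 3953 to 5007 for the mutant. These are ratios of read counts from transcripts of unequal length, not of molecules or protein.

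**Figure D2:**
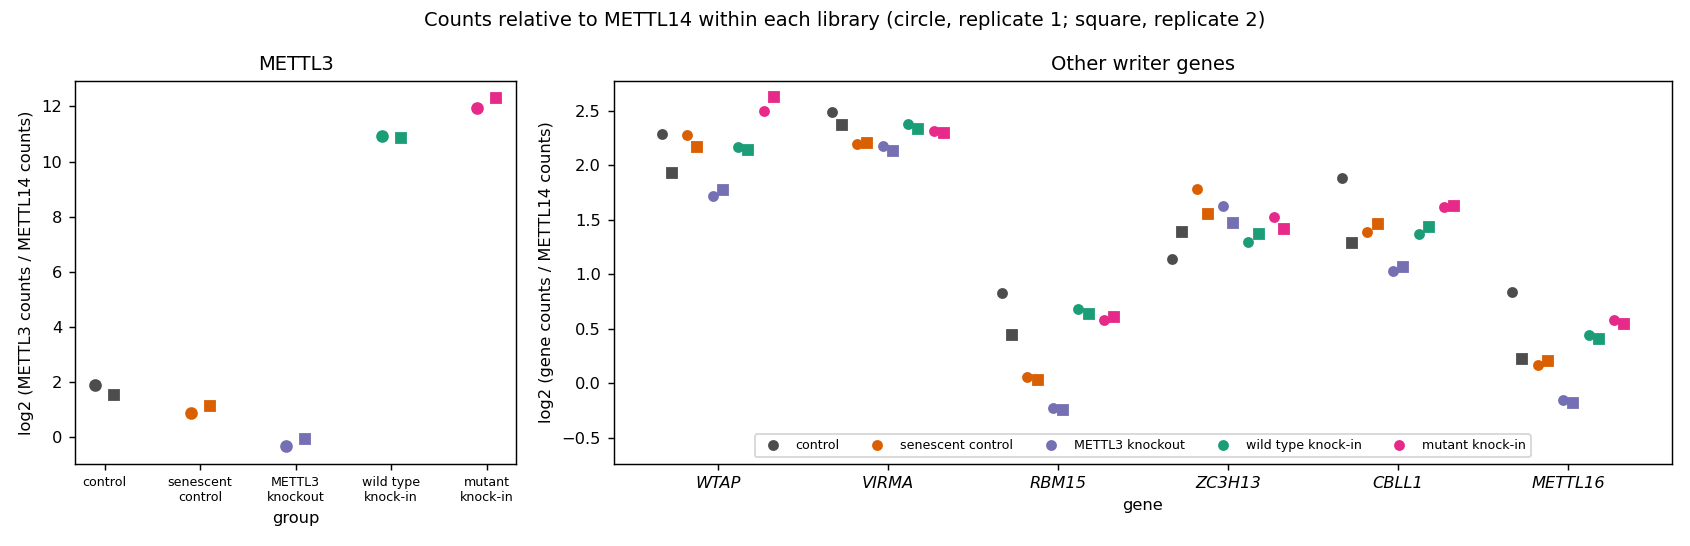
Counts of each member divided by METTL14 counts in the same sample, on a log2 axis, for the 5 groups (points, samples; METTL3 on the left, the other members on the right). The METTL3 ratio lies between 0.798 and 3.73 in the 6 samples without a knock-in and between 1869 and 5007 in the 4 knock-in samples.

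Among the other regulatory subunits, RBM15, an RNA-binding adaptor of the complex, showed the widest span, 1.93-fold between group means. Its level was 34.5 and 38.4 CPM in control, 26.5 and 26.6 CPM in the senescent control and 24.8 and 25.3 CPM in the knockout. It was 48.6 and 48.2 CPM in the wild type knock-in and 43.2 and 45.1 CPM in the mutant knock-in. Both knock-in groups lay above every other sample, and the knockout and senescent control were lowest. RBM15 fell in senescence by 0.46 on the log2 scale (SE 0.09; edgeR adjusted p = 0.00141) and did not change in the knockout beyond the test (log2 -0.08; edgeR adjusted p = 0.619). It rose in the wild type knock-in against the knockout by 0.95 (SE 0.09; 1.93-fold; edgeR adjusted p = 1.29e-05) and in the mutant by 0.82 (SE 0.09; 1.76-fold; edgeR adjusted p = 2.21e-05).

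METTL16 moved in the same direction over a smaller range. It stood at 34.8 and 33.0 CPM in control, 28.6 and 29.9 CPM in the senescent control, 26.1 and 26.4 CPM in the knockout, 41.1 and 41.2 CPM in the wild type knock-in, and 43.2 and 42.9 CPM in the mutant knock-in. The knock-in samples did not overlap those of any other group. METTL16 rose against the knockout by 0.65 in the wild type (SE 0.09; 1.57-fold; edgeR adjusted p = 0.000149) and by 0.71 in the mutant (SE 0.09; 1.64-fold; edgeR adjusted p = 4.00e-05). In senescence and in the knockout against the senescent control its differences of -0.21 and -0.16 did not pass (edgeR adjusted p = 0.0627 and 0.265).

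WTAP, the speckle anchor, was 94.7 and 107.4 CPM in control, 124.1 and 116.9 CPM in the senescent control and 95.9 and 102.4 CPM in the knockout. It reached 135.7 and 137.3 CPM in the wild type knock-in and 162.6 and 182.4 CPM in the mutant knock-in. The mutant samples were the highest, with a gap to the wild type samples. WTAP rose against the knockout by 0.46 in the wild type (SE 0.10; 1.38-fold; edgeR adjusted p = 0.00312) and by 0.80 in the mutant (SE 0.10; 1.74-fold; edgeR adjusted p = 3.90e-05). The wild type call was lost without knockout replicate 1 (edgeR adjusted p = 0.0676; range over alternatives 1.81e-05 to 0.0676). The WTAP gene overlaps SOD2, which was not matched to a row, and no source used here states the strand setting of the counting.

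CBLL1, a RING-domain protein of the regulatory part, was 71.7 and 69.0 CPM in control, 66.9 and 71.7 CPM in the senescent control, 59.3 and 62.6 CPM in the knockout, 78.2 and 83.7 CPM in the wild type knock-in, and 88.8 and 90.9 CPM in the mutant knock-in. It was lowest in the knockout, without overlap. CBLL1 rose against the knockout by 0.41 in the wild type (SE 0.09; 1.33-fold; edgeR adjusted p = 0.00315) and by 0.56 in the mutant (SE 0.09; 1.47-fold; edgeR adjusted p = 0.000223). The wild type call was lost without knockout replicate 1 (0.0635) and without wild type replicate 2 (0.0523; range over alternatives 0.000134 to 0.0635).

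VIRMA and ZC3H13, the large scaffold subunits, did not pass the test in any of the 5 main comparisons. Of all 10 pairs of groups, VIRMA was called in 2 and ZC3H13 in 1. VIRMA was 109.2 and 145.6 CPM in control, 116.7 and 119.7 CPM in the senescent control, 131.7 and 131.1 CPM in the knockout, 157.1 and 156.2 CPM in the wild type knock-in, and 143.4 and 145.0 CPM in the mutant knock-in. ZC3H13 was 42.9 and 74.0 CPM in control, 88.0 and 76.2 CPM in the senescent control, 89.8 and 83.1 CPM in the knockout, 74.6 and 80.4 CPM in the wild type knock-in, and 82.8 and 78.6 CPM in the mutant knock-in. In control the first sample was well below the second for both genes. For ZC3H13 in senescence (log2 0.49, edgeR adjusted p = 0.0663) leaving out control replicate 2 gave 0.99. Of its 10 alternatives 4 gained a call and 0 changed sign, with log2 differences from 0.17 to 0.99. For VIRMA in senescence (log2 -0.11, edgeR adjusted p = 0.470) leaving out control replicate 1 gave -0.28 at 0.00230 and leaving out control replicate 2 turned it to 0.16 at 0.0636 (range 0.00230 to 0.804).

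Read as comparisons, 3 of the 8 members were called in senescence, 1 higher (WTAP, log2 0.25, edgeR adjusted p = 0.0481) and 2 lower (METTL3, RBM15), when 45% of all genes tested were called, 19.7% higher and 25.3% lower. The WTAP call was lost without control replicate 1 (edgeR adjusted p = 0.0745), senescent control replicate 1 (0.200) or senescent control replicate 2 (0.0842), without the filter on low counts and with only these groups fitted; over its alternatives adjusted p ran from 0.000292 to 0.200. In the knockout against the senescent control METTL3 alone was called, 1 of 8 and lower, against 15.8% of all genes (7.17% higher, 8.62% lower). WTAP (log2 -0.28, edgeR adjusted p = 0.0709) was the closest of the others. When these 2 groups were fitted without the rest, 5 members were called: METTL3, WTAP, CBLL1, VIRMA and METTL14, with WTAP at an adjusted p of 0.000347 (range over alternatives 0.000347 to 0.374).

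In the wild type knock-in against the knockout 5 of 8 members were higher and 0 lower, with 33.3% of all genes called, 18.5% higher and 14.8% lower. In the mutant knock-in against the knockout 5 of 8 were again higher and 0 lower, with 48.4% of all genes called, 24.1% higher and 24.3% lower. The same 5 genes were called in both, METTL3 and the 4 others RBM15, METTL16, WTAP and CBLL1; METTL3 is the introduced gene, and both comparisons use the same knockout samples. The median log2 difference of the 8 members was 0.43 in the wild type and 0.64 in the mutant, and that of all genes was 0.02 and 0.01. The METTL14, VIRMA and ZC3H13 differences were between -0.16 and 0.25 in the wild type and between -0.10 and 0.13 in the mutant. Fitted with these groups alone, VIRMA was also called, at an adjusted p of 0.00135 in the wild type and 0.0296 in the mutant.

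**Figure D3:**
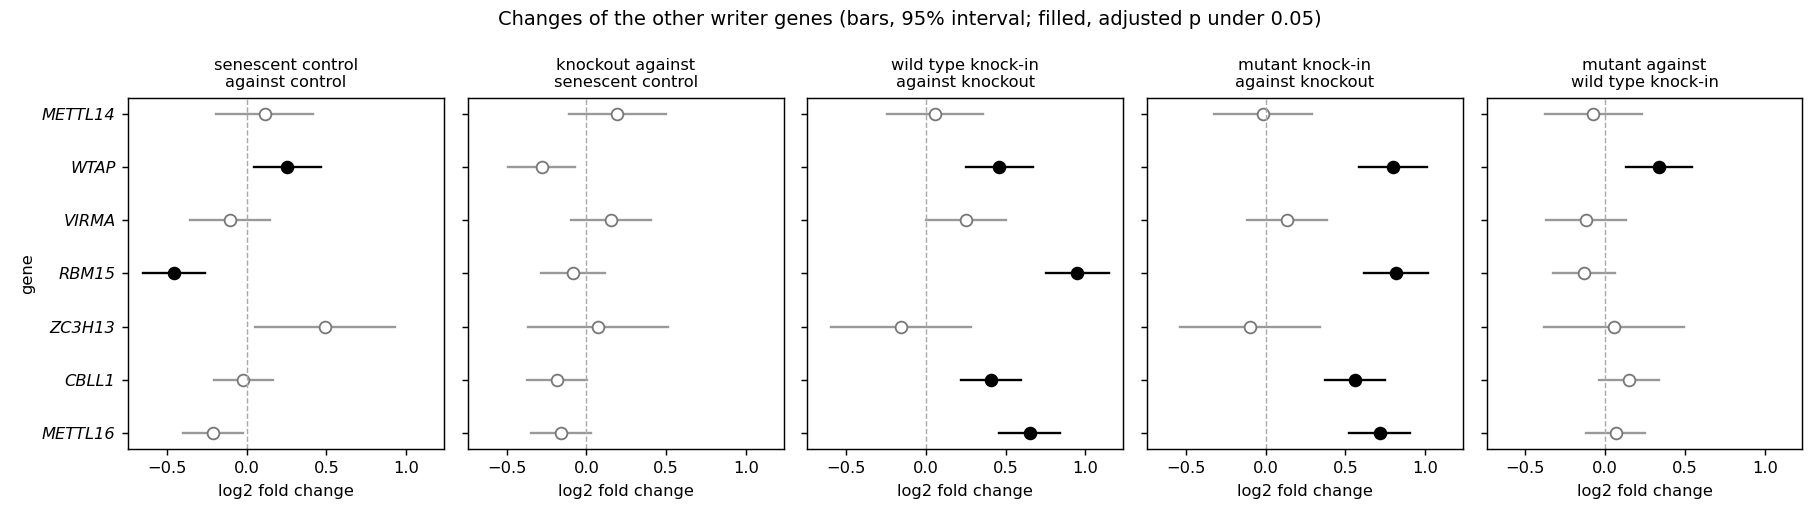
Log2 fold change of the 7 members other than METTL3 in the 5 main comparisons, with 95% intervals from the edgeR fit; filled points passed the test. RBM15, METTL16, WTAP and CBLL1 lie to the right of 0 in both comparisons of a knock-in with the knockout, and METTL14, VIRMA and ZC3H13 have no filled point.

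Other features of the samples also differed between the knockout and the knock-in groups, not all in the same direction in both. HRAS averaged 40.2 CPM in the knockout, 46.1 CPM in the wild type knock-in and 26.7 CPM in the mutant, and LMNB1 7.64, 2.30 and 3.09 CPM. Genes with at least 1 count numbered 22663 and 22713 in the knockout samples, 24270 and 24501 in the wild type knock-in and 25265 and 25582 in the mutant knock-in. The summed level of 5 leukocyte markers was 78.2 to 79.5 CPM in the knockout, 157 to 163 CPM in the wild type and 170 to 177 CPM in the mutant. CD68, which also belongs to lysosomes, made up most of it (76.4, 156 and 166 CPM), CD3E was at 0 in every sample, and PTPRC, the defining leukocyte gene, was at most 5.89 CPM. Summed fibroblast markers were 17366 to 18692 CPM in the knockout, 15940 to 16675 CPM in the wild type and 12495 to 13360 CPM in the mutant. Their part in the rise of RBM15, METTL16, WTAP and CBLL1 was not tested.

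Between the knock-in groups, 2 of 8 members were called, both higher in the mutant, against 12.5% of all genes (5.16% higher, 7.39% lower). These were METTL3 itself and WTAP, by 0.34 on the log2 scale (SE 0.10; 1.26-fold; edgeR adjusted p = 0.0397). The WTAP call was lost without wild type replicate 1 (edgeR adjusted p = 0.165) or 2 (0.185), without mutant replicate 1 (0.0790) or 2 (0.302), and without the filter (0.0569); the range over alternatives was 0.00218 to 0.302. HRAS averaged 46.1 CPM in the wild type and 26.7 CPM in the mutant, and its part in these differences was not tested. RBM15 differed by -0.13 (95% interval -0.32 to 0.06) and METTL16 by 0.06 (-0.12 to 0.25), which do not pass the test and do not show that the groups are alike.

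Against the senescent control, which had no METTL3 siRNA, 4 of 8 members were higher in the wild type knock-in (39.9% of all genes called, 20.8% higher and 19.1% lower) and 5 of 8 in the mutant (53.3%, with 27% higher and 26.3% lower). RBM15 was higher by 0.87 and 0.73 on the log2 scale, and METTL16 by 0.49 and 0.56 (edgeR adjusted p = 0.000752 and 0.000180 for METTL16). WTAP was called in the mutant (log2 0.52, edgeR adjusted p = 0.000702) and not in the wild type (log2 0.18, edgeR adjusted p = 0.160). The 4 called in the wild type were METTL3, RBM15, METTL16 and VIRMA. Against control, the wild type knock-in had 6 of 8 members higher (59.9% of all genes called, 29.7% higher and 30.2% lower) and the mutant 5 of 8 (68.2%, with 33.7% higher and 34.4% lower). The 6 in the wild type were METTL3, which is the introduced gene, METTL14, WTAP, VIRMA, RBM15 and METTL16. The knockout had 1 member higher than control, ZC3H13, and 3 lower, METTL3, RBM15 and METTL16 (46.4% of all genes called, 19.7% higher and 26.7% lower). RBM15 and METTL16 were below control in the knockout and above it in both knock-in groups. The calls given here were not recomputed under the alternatives used for the main comparisons. For METTL14, VIRMA and ZC3H13 the 2 control samples lay far apart. ZC3H13 stood at 42.9 and 74.0 CPM in control, against 89.8 and 83.1 CPM in the knockout.

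Ordered by mean, RBM15 ran wild type knock-in, mutant knock-in, control, senescent control, knockout, and among neighbours the test separated mutant from control and control from senescent control. For METTL16, with the mutant first, it separated the wild type knock-in from control. For METTL14, VIRMA, ZC3H13 and CBLL1 no neighbouring pair differed. The 21 pairs of members other than METTL3 were compared by the root mean square difference of centred log2 CPM over the 10 samples. METTL14 and VIRMA were nearest, at 0.104. CBLL1 with METTL16 (0.106) and RBM15 with METTL16 (0.142) came next, and RBM15 with ZC3H13 was farthest at 0.514. Genes that vary little lie near each other by this measure whether or not they move together. METTL14 and VIRMA had the smallest ranges of group means (0.388 and 0.406 on the log2 scale).

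For METTL3, the member with a range of at least 1 on the log2 scale, the genes with the nearest pattern over the 10 samples were HSPA6 (1.04), a stress-inducible HSP70, and SCN1A and DPYS (2.08 and 2.12), the last 2 at no more than 7.77 CPM. HSPA6 averaged 0.309 CPM in control, 0.429 CPM in the senescent control, 0.633 CPM in the knockout, 232.8 CPM in the wild type knock-in and 576 CPM in the mutant knock-in.

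Per kilobase of the longest annotated coding transcript, METTL3 was the highest member in control (38.2 CPM per kb), before WTAP (27.6) and VIRMA (19.5), and METTL14 was the lowest (3.58). In the knockout METTL3 was at 12.9 CPM per kb, below WTAP (27.1), VIRMA (20.1) and CBLL1 (13.8). METTL14 was still lowest there, at 4.43 CPM per kb. Summed over the 7 members other than METTL3, the level was 457 and 461 CPM in the knockout, 566 and 578 CPM in the wild type knock-in and 593 and 614 CPM in the mutant knock-in.

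For the 4 members that rose together in the knock-in groups, the 250 bases before the RefSeq start are shown. They are the promoters of the members that moved together (GRCh38.p14, the build of the RefSeq starts, not of the counts). They lie at chr1:110339127-110339376 on the plus strand (RBM15), chr17:2511889-2512138 on the minus strand (METTL16), chr6:159726867-159727116 on the plus strand (WTAP, the first of 2 entries) and chr7:107743892-107744141 on the plus strand (CBLL1). Each is written 5′ to 3′ toward the gene, and capitals mark matches on either strand to CCAAT, the core of the NF-Y box, to CCGGAA, an ETS core, or to the E-box CACGTG.
RBM15: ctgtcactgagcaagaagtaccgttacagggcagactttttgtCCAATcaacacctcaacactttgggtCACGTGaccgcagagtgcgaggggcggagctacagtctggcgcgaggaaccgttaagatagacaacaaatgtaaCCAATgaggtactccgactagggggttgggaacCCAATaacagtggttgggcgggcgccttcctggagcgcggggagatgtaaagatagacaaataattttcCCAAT
METTL16: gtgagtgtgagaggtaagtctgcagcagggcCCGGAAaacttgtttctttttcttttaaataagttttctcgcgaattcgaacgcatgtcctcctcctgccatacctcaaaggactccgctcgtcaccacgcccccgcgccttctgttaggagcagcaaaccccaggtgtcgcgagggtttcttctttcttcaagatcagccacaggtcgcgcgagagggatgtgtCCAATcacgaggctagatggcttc
WTAP: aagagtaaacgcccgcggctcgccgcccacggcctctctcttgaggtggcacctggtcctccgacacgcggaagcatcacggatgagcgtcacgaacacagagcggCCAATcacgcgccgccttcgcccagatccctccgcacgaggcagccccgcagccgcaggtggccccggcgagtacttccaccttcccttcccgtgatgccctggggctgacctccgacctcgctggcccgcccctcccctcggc
CBLL1: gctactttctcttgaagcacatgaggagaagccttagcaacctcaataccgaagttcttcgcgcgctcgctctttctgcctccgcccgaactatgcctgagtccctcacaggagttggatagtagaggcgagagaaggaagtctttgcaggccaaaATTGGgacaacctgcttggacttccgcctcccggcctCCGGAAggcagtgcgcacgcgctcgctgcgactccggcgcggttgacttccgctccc

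Also searched on both strands were TGACGTCA, the cyclic AMP response element, and TGATGNAAT, a C/EBP-ATF element. Of 35116 promoters of this length, 32% held CCAAT, 14.5% CCGGAA, 6.34% CACGTG, 1.65% TGACGTCA and 0.888% TGATGNAAT. RBM15 had 4 CCAAT matches, 207, 107, 74 and 5 bases before the start, and 1 CACGTG 181 bases before it. METTL16 had CCAAT at 24 and CCGGAA at 219 bases, CBLL1 had CCAAT at 94 and CCGGAA at 57 bases, and WTAP had CCAAT at 144 bases in the entry shown and no match in its other entry. METTL14 and ZC3H13, which were not called against the knockout, also held CCAAT, at 19 and 204 bases. CCGGAA lay at 35 and 15 bases in METTL14, the second overlapping its CCAAT, and at 34 bases in ZC3H13. METTL3 held CCGGAA at 130 and 39 bases and no CCAAT. The last 2 motifs were matched in none of these. VIRMA, also not called against the knockout, is not among the promoters reported, so the members that did not rise are incompletely covered. Matches are letters in a window and say nothing of binding.

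MAT2A was followed beside METTL16 as its known target. It stood at 355 and 340 CPM in control, 266 and 279 CPM in the senescent control, 240 and 248 CPM in the knockout, 256 and 254 CPM in the wild type knock-in, and 256 and 238 CPM in the mutant knock-in. MAT2A fell in senescence by 0.35 on the log2 scale (SE 0.08; edgeR adjusted p = 0.00485), and no other main comparison passed the test. Where METTL16 rose, MAT2A differed by 0.06 in the wild type (95% interval -0.12 to 0.24; edgeR adjusted p = 0.620) and 0.02 in the mutant (edgeR adjusted p = 0.873).

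METTL16 methylates MAT2A at hairpins holding the motif TACAGAGAA or TACAGAAAA. In the annotated transcript of MAT2A, 2819 bases long (GENCODE v29), a search found 6 matches, at bases 1351, 2138, 2323, 2438, 2553 and 2661. They are shown, with 10 bases on either side and the motif in capitals, because they are the sequences that METTL16 is known to bind. Of 83129 coding transcripts in that annotation 4.7% held at least 1 match. Those with 6 or more numbered 3, this MAT2A transcript included, and whether the rest were also from MAT2A was not examined.
MAT2A site 1: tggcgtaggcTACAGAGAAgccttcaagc
MAT2A site 2: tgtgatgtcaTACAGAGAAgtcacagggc
MAT2A site 3: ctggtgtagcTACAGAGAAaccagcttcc
MAT2A site 4: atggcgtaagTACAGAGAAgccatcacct
MAT2A site 5: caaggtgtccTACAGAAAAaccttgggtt
MAT2A site 6: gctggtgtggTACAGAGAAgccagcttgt

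**Figure D4:**
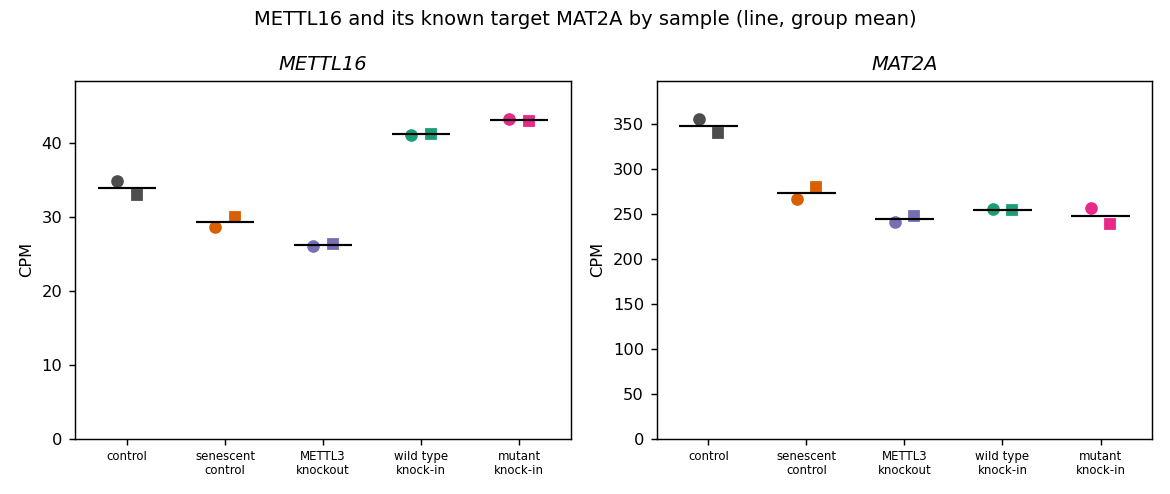
CPM of METTL16 and of MAT2A in the 10 samples (points) with group means (lines); both axes start at 0. METTL16 is highest in the knock-in samples, from 41.1 to 43.2 CPM, where MAT2A lies between 238 and 256 CPM, as in the knockout.

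Beside the writers, 16 eraser and reader genes were tested. In the wild type knock-in against the knockout 4 were higher and 1 lower, a share of 31.2% called against 33.3% of all genes. In the mutant 6 were higher and 3 lower, 56.2% against 48.4%, so both shares lay near those of all genes. YTHDC1, the nuclear m6A reader, was the one past 1 on the log2 scale, by 1.27 in the mutant (SE 0.11; edgeR adjusted p = 3.01e-06) and by 0.97 in the wild type (SE 0.11; edgeR adjusted p = 4.06e-05). Its values were 57.3 and 70.2 CPM in control, 63.7 and 61.3 CPM in the senescent control, 72.0 and 66.6 CPM in the knockout, 142 and 129 CPM in the wild type knock-in, and 161 and 174 CPM in the mutant knock-in. Both knock-in groups lay above all 6 other samples. Of 11 other methylation genes, 7 were lower and 0 higher in senescence, a share of 63.6% called, where 25.3% of all genes were lower, 19.7% higher and 45% called in either direction. PCIF1, which methylates the cap-adjacent adenosine, was 20.6 and 14.5 CPM in control and 7.46 and 8.22 CPM in the senescent control, and fell by 1.16 on the log2 scale (SE 0.17; edgeR adjusted p = 0.000190).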

How the data were processed

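IMR90 RNA was measured in 10 libraries, 2 per group. The authors deposited gene counts, whole numbers per Ensembl gene. Per the submitters' processing notes Bowtie2, RSEM 1.2.12 and hg19 were used; no source used here states the annotation or the strand setting. Symbols came from a gene name table, which matched 51959 of 57736 rows.

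From the deposited counts, genes were kept by edgeR's filterByExpr (minimum count 10), scaled by TMM and fitted in 1 quasi-likelihood model over all 10 samples (5 residual degrees of freedom; edgeR 4.0.16, R 4.3.3). Adjusted p-values are Benjamini-Hochberg over 16760 genes, called at 0.05. CPM uses the TMM-scaled library size. The fit was tested on simulated data for the knockout against the senescent control, with 200 changed genes and 16236 genes tested. It called 67% of 2-fold and 86% of 4-fold changes, with 9 false calls and 1 sign error. Depth was 16293975 to 23570266 counts, and with 2 samples a group the error of each value rests on the spread pooled over genes (common biological coefficient of variation 9.22%).

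All members are named. From the other gene lists a gene is named where it passed the test with a log2 difference of at least 1 in a main comparison, at most 4 per comparison, and MAT2A always. For members spanning at least 1 on the log2 scale over group means, the 3 nearest genes are named. The members and lists were chosen with earlier results of these data known. Alternatives were upper-quartile scaling, no filter, DESeq2 1.42.0, the METTL3 row left out, only the 2 groups fitted, a replicate block and leaving out each replicate.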

Additional observations from a re-analysis of the deposited data

How the results depend on the processing

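The 5 main comparisons were recomputed under each alternative. For single genes, 355 of 395 recomputed values kept their direction and their side of the threshold, 16 lost a call, 12 gained one and 12 changed sign, each for a difference not called before or after the sign changed. In senescence CBLL1 (-0.022) became 0.024 with upper-quartile scaling, 0.020 without the METTL3 row, 0.016 with DESeq2 and 0.027 with only the 2 groups fitted, and METTL14 in the mutant against the knockout (-0.016) became 0.036 with upper-quartile scaling. Leaving out 1 replicate gave, in senescence, -0.040 to 0.055 for CBLL1, -0.11 to 0.45 for METTL14 and -0.28 to 0.16 for VIRMA. It gave -0.025 to 0.18 for ZC3H13 in the knockout against the senescent control, -0.0056 to 0.074 for METTL14 in the wild type knock-in against the knockout, and -0.015 to 0.14 for ZC3H13 between mutant and wild type. RBM15 and METTL16 against the knockout in both knock-in groups, WTAP and CBLL1 in the mutant, RBM15 in senescence, and METTL3 in the knockout and both knock-in groups kept their calls under every alternative that gave a value. The METTL3 row left out gives METTL3 no value.

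The count of members called moved from 2 to 1 between mutant and wild type knock-in without the filter on low counts, and from 1 to 5 in the knockout against the senescent control when only these groups were fitted. Leaving out 1 replicate gave 1 to 4 members called in senescence, 3 to 5 in the wild type knock-in against the knockout, and 1 for each replicate between mutant and wild type. Over all genes, fitting only the 2 groups called 5621 in the knockout (2646 with all groups) and 4078 between mutant and wild type (2103). Leaving out 1 replicate called 1198 to 1368 genes in the knockout, 3390 to 4150 in the wild type knock-in against the knockout, and 123 to 1178 between mutant and wild type, the lowest without mutant replicate 2. The cause was not tested beyond the smaller number of samples. Of the genes called between mutant and wild type 41.1% were higher, and 57.7% with upper-quartile scaling.

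Same-numbered samples did not deviate together over all genes (correlations -0.0994 to 0.0419), so no pairing by number was seen. A pairing with a small effect or in few genes was not tested. With a replicate block 2538 genes were called in the knockout and 5473 and 8019 in the knock-in groups, and the count of members called did not move.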
